A study of Mus musculus with 2 samples.

Results

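Lipoprotein assembly, remodelling and uptake were followed through 8 genes in the liver of mouse embryos: Mttp, Pltp, Lcat, Lipc, Scarb1, Abca1, Lrp1 and Apom. The genes were chosen by symbol, and all 8 were found among the 43346 genes measured, of which 21474 were protein-coding. Total RNA was sequenced from whole livers of B6NCrl embryos at embryonic day 15.5, both sexes pooled, with no treatment or mutant allele in the labels. There was 1 group with 2 biological replicates: replicate 1 pooled 78 embryos and replicate 2 pooled 62. Levels are in TPM, the relative abundance of transcripts normalised for their length, and were rescaled here after spike-ins were left out. Depth was 34039426 expected counts in replicate 1 and 44200838 in replicate 2, spike-ins left out. With no second group, the design allows levels, transcripts and the spread between the libraries to be described. No p-value is given, because with only 2 libraries the smallest that an exact two-sided sign test can reach is 0.5.

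The liver secretes lipid into blood as lipoproteins, particles with a core of triglyceride and cholesterol ester under a shell of phospholipid and apolipoproteins. Very low density lipoproteins are built on apolipoprotein B in the endoplasmic reticulum, while high density lipoproteins (HDL) start from apolipoprotein A-I that takes up cell lipid and are reshaped in plasma by enzymes and transfer proteins. The liver takes particles, remnants and cholesterol ester back through receptors. At this stage the fetal liver is also the main site of blood formation, so hepatocytes share it with red cell precursors and macrophages.

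All 8 genes were detected, that is at 1 TPM or more in both libraries, against 53.1% of protein-coding genes (11403 of 21474). Apom stood far above the rest at 815 ± 36.1 TPM (SD, n = 2), which was 10.7-fold the level of the next gene and 74.9% ± 1.36 of the summed TPM of the 8. Below it came Scarb1 at 75.8 ± 7.11 TPM, Lcat at 72.3 ± 9.49, Lipc at 36.4 ± 2.40, Mttp at 32.9 ± 1.79, Lrp1 at 24.9 ± 5.22, Pltp at 19.1 ± 3.74 and Abca1 at 12.2 ± 2.15. The order was the same in both libraries. Over the 2 libraries the ranges of Scarb1 and Lcat overlapped, as did those of Lrp1 and Pltp, and the other neighbours in the order did not overlap. Together the 8 genes held 1137 and 1041 TPM in replicates 1 and 2, of which the 7 other than Apom held 296 and 251. Apom ranked 72nd among detected protein-coding genes by mean TPM, Scarb1 1291st and Abca1 5508th. The median detected protein-coding gene was at 11.7 and 11.3 TPM, so that Abca1 was above it in replicate 1 and below it in replicate 2.

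**Figure D1:**
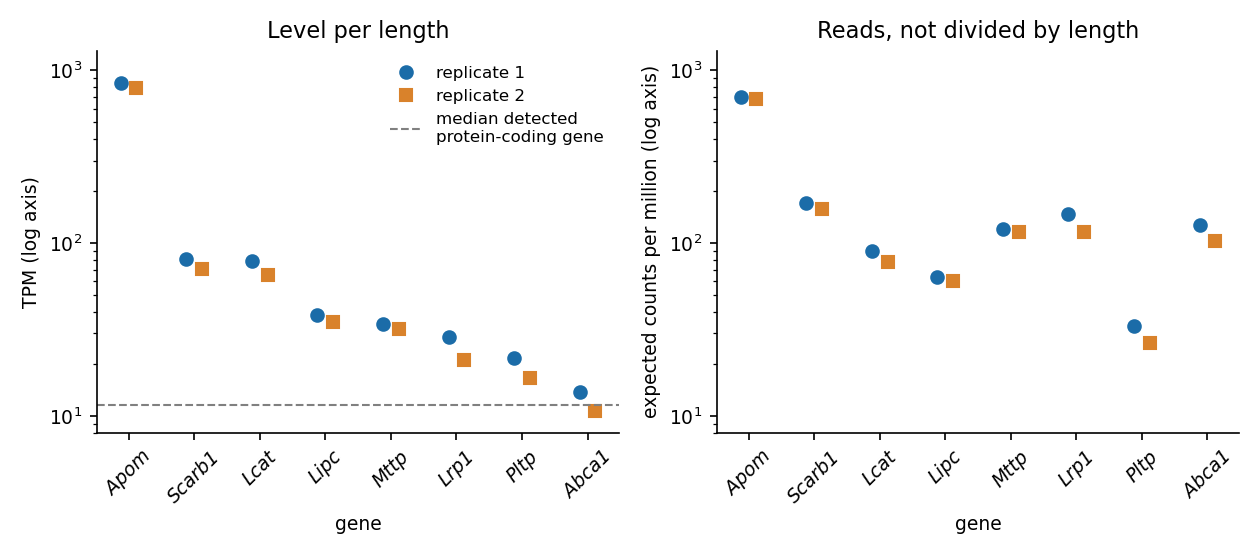
Level of each gene in each library: TPM (left) and expected counts over the library total, which are not divided by length (right), both on log axes with 1 point per library. Apom leads on both scales, while the long transcripts of Lrp1, Mttp and Abca1 move up the order on the right; the dashed line is the mean over the libraries of the median detected protein-coding gene, at 11.5 TPM.

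The order depended on length. By expected counts, which grow with transcript length, Apom had 23930 and 30300 and Scarb1 5847 and 6989. Lrp1, with 5014 and 5153 counts, and Abca1, with 4344 and 4559, had more reads than Lcat, with 3057 and 3421, although both were below Lcat in TPM. Pltp had the fewest reads, at about 1132 and 1164 expected counts, the smallest read number behind any of these levels.

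The cell types behind these levels were checked with marker lists. Hepatocyte markers were high, led by Trf (transferrin) at 15233 and 10337 TPM and Afp (alpha-fetoprotein, the fetal plasma carrier) at 11399 and 10353. Tat, which the mature liver uses to break down tyrosine, was below 1 TPM. Erythroid markers were also high, with Alas2, the first enzyme of red cell haem synthesis, at 1454 and 1294 TPM. Macrophage markers were led by C1qb at 124 and 101 TPM and Cd5l at 82.0 and 68.3. Of 7 intestine markers 1 was detected (Fabp2), and Cdx2 was at 0 and 0.0206 TPM. Whole liver was sequenced in bulk, so fewer cells of a type and less RNA per cell cannot be told apart, and no gene here was assigned to a cell type.

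Assembly of very low density lipoproteins was represented by Mttp (chr3:138089854-138144968, minus strand, GRCm38), whose product loads triglyceride onto nascent apolipoprotein B. Mttp stood at 34.2 TPM in replicate 1 and 31.6 in replicate 2. Its binding partner P4hb, the protein disulfide isomerase that also serves general protein folding, was at 752 and 594 TPM, 20.3-fold higher than Mttp, a log2 ratio of Mttp to P4hb of −4.34 ± 0.16 (SD, n = 2). Apob, the structural protein Mttp acts on, was at 124 and 106 TPM. Mttp was below Apob in both libraries, with a ratio of 0.276 and 0.298.

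Mttp was read from 2 annotated transcripts that differ at the start. Mttp-201 held 96.4% and 95.5% of the TPM of Mttp in the 2 libraries, and Mttp-202 held 3.57% and 4.50%. Mttp-202 starts 12.011 kb upstream of Mttp-201, has 20 exons against 18, and begins its coding sequence in an exon of its own. The first coding stretch of each is shown because it is the sequence in which the predicted proteins differ, with the ATG start codon in capitals (GENCODE M21, GRCm38, minus strand, chr3:138131240-138131300 and chr3:138134000-138134105):
Mttp-201: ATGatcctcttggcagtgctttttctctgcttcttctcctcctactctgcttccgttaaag
Mttp-202: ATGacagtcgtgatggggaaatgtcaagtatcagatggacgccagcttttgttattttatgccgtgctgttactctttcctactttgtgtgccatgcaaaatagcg
Mttp-201, with the upper sequence, exceeded Mttp-202 by 27.0-fold in replicate 1 and 21.2-fold in replicate 2. The upstream start lies 60 bases from the start of Trmt10a, a tRNA methyltransferase gene on the opposite strand, which was at 2.61 and 4.75 TPM. The TPM of Mttp-202 was estimated by the authors on a model of 4272 nt. The GENCODE M21 model, from which the exons and sequence are taken here, has 3072 nt, so the 2 models differ. In GENCODE M21, Mttp-202 also ends before Mttp-201 at the 3′ end. The M21 span of Mttp reaches beyond the start of Mttp-202 at position 138143388. Mttp shares 132 exonic bases with an antisense gene, Gm43691, which was not analysed here.

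The other assembly genes lay around Mttp. All 14 genes of this list were detected and 12 were above 10 TPM in both libraries, with a median of 48.7 TPM. After P4hb the highest were Dgat2, which makes triglyceride, at 160 and 126 TPM, and Apob. Tm6sf2, a membrane protein that affects lipidation of very low density lipoproteins, was the lowest at 2.16 and 1.52 TPM. Cideb, a lipid droplet protein that acts in the same export route, differed most between the libraries, at 71.7 and 53.1 TPM. Soat2, which esterifies cholesterol for the particle core, was the pathway gene closest to Mttp in level, at 32.1 and 30.5 TPM.

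Remodelling of particles was represented by Lcat, Lipc and Pltp. Lcat (chr8:105939551-105943382), the plasma enzyme that esterifies cholesterol on HDL, was at 79.0 TPM in replicate 1 and 65.5 in replicate 2. Apoa1, the apolipoprotein that activates Lcat, was at 5543 and 4717 TPM, 71.1-fold higher. The log2 ratio of Lcat to Apoa1 was −6.15 ± 0.03, the smallest SD among the 9 pairs of genes compared, so both were lower in replicate 2 by nearly the same factor. Lpcat3, which makes polyunsaturated phospholipid, was closest to Lcat in level, at 79.5 and 75.6 TPM.

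Lipc (chr9:70798128-70952226) encodes hepatic lipase, which hydrolyses phospholipid and triglyceride of HDL and remnants and is a liver enzyme in the adult. It was at 38.1 and 34.7 TPM. Lpl, lipoprotein lipase, which acts in muscle and fat of the adult, was at 122 and 98.6 TPM in these livers. Lipc was therefore below Lpl in both libraries, with ratios of 0.313 and 0.352 and a log2 ratio of −1.59 ± 0.12. Lipg, the endothelial lipase of the same family, was at 0.259 and 0.186 TPM, below the detection limit. The transcription factor gene Srebf2, a regulator of cholesterol synthesis and uptake, was closest to Lipc in level, at 36.9 and 33.4 TPM.

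Pltp (chr2:164839518-164857711), which moves phospholipid between lipoproteins, was at 21.8 and 16.5 TPM. Its level was 3.80-fold below that of Lcat, a log2 ratio of −1.93 ± 0.09. Pltp shares 495 exonic bases with Ctsa, a lysosomal protease gene on the opposite strand at 75.0 and 69.2 TPM. Whether counting used strand is not given in the sources used here, and the part of Ctsa in the level of Pltp was not tested. Pltp-201 held 94.6% and 96.9% of its TPM over 7 annotated transcripts. Stab2, a scavenger receptor gene of liver sinusoids, was closest to it in level, at 20.4 and 18.2 TPM.

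Of the 13 other remodelling genes 12 were detected and 7 were above 10 TPM in both libraries. Lpl and Lpcat3, with the values above, were among the 3 highest of the list. Pon1, an HDL-bound esterase, differed most between libraries at 8.23 and 6.11 TPM. Gpihbp1, which carries lipoprotein lipase across capillary walls, was at 7.62 and 6.04 TPM.

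Sterol efflux and uptake were represented by Abca1, Scarb1 and Lrp1. Abca1 (chr4:53030787-53159895) exports phospholipid and cholesterol to apolipoprotein A-I and so starts an HDL particle. It was the lowest of the 8 genes, at 13.7 TPM in replicate 1 and 10.7 in replicate 2. Abcg1, which exports sterol to particles already formed, was at 14.5 and 13.2 TPM. The log2 ratio of Abca1 to Abcg1 was −0.19 ± 0.16, and the ranges of both genes overlapped over the 2 libraries. Abcg5 and Abcg8, which together pump sterol into bile, were near 0.5 TPM each, at 0.528 and 0.454 for Abcg5 and 0.549 and 0.526 for Abcg8. Lmf1, a chaperone of lipases, was the pathway gene closest to Abca1, at 12.3 and 9.55 TPM.

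Abca1 is a textbook target of the liver X receptors, which are activated by oxidised cholesterol, and of the microRNA miR-33, which lies in an intron of Srebf2. Nr1h3 and Nr1h2, the genes of liver X receptors alpha and beta, were detected at 18.9 and 19.4 TPM and at 42.3 and 42.4 TPM. Both kinds of sequence were looked for because of this background, and after the levels had been seen. The 250 bases before the start of Abca1 (RefSeq, GRCm38.p6, minus strand, chr4:53159896-53160145) are shown with a TATAAA match and a receptor-type element in capitals:
Abca1: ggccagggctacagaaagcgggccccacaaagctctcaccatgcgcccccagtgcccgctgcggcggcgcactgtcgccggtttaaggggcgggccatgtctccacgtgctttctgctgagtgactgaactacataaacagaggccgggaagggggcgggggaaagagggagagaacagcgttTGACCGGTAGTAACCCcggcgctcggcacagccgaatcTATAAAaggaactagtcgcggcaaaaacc
The TATAAA match begins 29 bases before the start, and 13.6% of 32817 promoter windows of 300 bases hold TATAAA on either strand. The receptor-type element is TGACCG, then any 4 bases, then TAACCC, and begins 67 bases before the start. It was written down from this window after reading it, and on either strand it occurs in 3 of the 32817 windows (0.00914%), which describes these letters and shows no binding.

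miR-33 is shown with its seed (bases 2 to 8) in capitals, above the 3 places in the Abca1 3′ untranslated region that match it (RefSeq for the microRNA, chr15:82198127-82198147, and GENCODE M21 for Abca1, chr4:53033799-53033820, chr4:53033794-53033815 and chr4:53033784-53033805 on the minus strand), with the CAATGCA match in capitals:
mmu-miR-33-5p: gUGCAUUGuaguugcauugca
Abca1 site 1: actgacactattCAATGCAatg
Abca1 site 2: cactattcaatgCAATGCActt
Abca1 site 3: tgcaatgcacttCAATGCAacg
The matches cover bases 135 to 141, 140 to 146 and 150 to 156 of a region of 3156 bases, and sites 1 and 2 share 2 bases. Of 7 members with an annotated 3′ untranslated region of at least 30 bases, Abca1 was the only one with a match, and its region was also the longest of the 7. Among all 19768 genes with such a region, 6.58% held at least 1 match and 0.0607% held 3 or more. Among the 2144 genes with a region at least as long as that of Abca1, these shares were 22.4% and 0.420%. The host gene Srebf2 was at 36.9 and 33.4 TPM, and mature miR-33 is shorter than the RNA sequenced here, so its level was not measured.

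Scarb1 (chr5:125277087-125341094) encodes SR-BI, the HDL receptor that takes cholesterol ester from the particle without degrading it. It was at 80.9 and 70.8 TPM in replicates 1 and 2, lower in replicate 2 but close to the level of Lcat in both. Pdzk1, the adaptor that holds SR-BI at the hepatocyte surface, was at 25.0 and 19.8 TPM, which put Scarb1 3.40-fold above it. Lpcat3 was the pathway gene closest to Scarb1 as well.

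Scarb1 gave 2 main coding transcripts in a steady proportion. Scarb1-201, which encodes SR-BI, held 73.3% and 74.4% of the TPM, and Scarb1-202, which encodes the splice form SR-BII, held 20.3% and 20.7%. Their ratio was 3.62 and 3.59 in the 2 libraries. Scarb1-202 skips an exon of 129 bases (chr5:125281105-125281233), of which 126 are coding before the stop codon, and instead reads 117 coding bases from the last exon. The skipped coding stretch and the first 30 bases that replace it are shown because they are what separates the forms. Capitals mark the last 4 codons of SR-BI, the tail by which, as background, the receptor binds the adaptor encoded by Pdzk1 (GENCODE M21, minus strand, chr5:125281108-125281233 and chr5:125277836-125277865):
Scarb1-201: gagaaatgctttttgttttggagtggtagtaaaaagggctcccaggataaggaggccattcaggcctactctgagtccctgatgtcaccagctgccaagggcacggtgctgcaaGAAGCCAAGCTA
Scarb1-202: ggtcctgaagacactataagccccccaaac
The capitals are absent from the Scarb1-202 transcript because the exon that holds them is skipped. The form with this tail was at 59.3 and 52.7 TPM, and the form without it at 16.4 and 14.7.

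**Figure D2:**
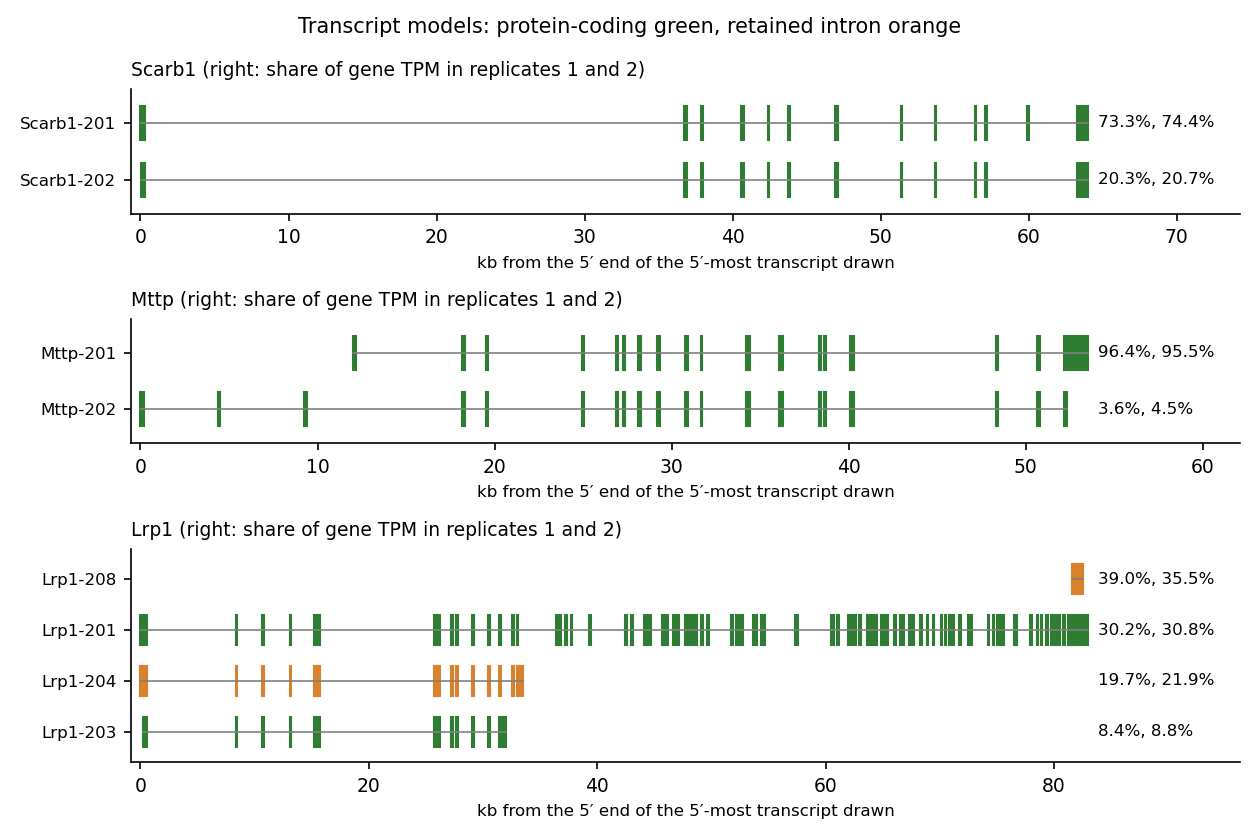
Exons (boxes) of the transcripts of Scarb1, Mttp and Lrp1 with a mean share of at least 4% of gene TPM, in kb from the 5′ end of the 5′-most transcript drawn, with the share in both libraries on the right; narrow exons are widened to stay visible. Scarb1-202 lacks an exon near the 3′ end, Mttp-202 starts 12.011 kb upstream, and the leading Lrp1 entry, Lrp1-208, covers only the last part of the gene.

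Lrp1 (chr10:127538161-127621148) encodes a very large endocytic receptor that clears chylomicron remnants from blood. It was at 28.6 TPM in replicate 1 and 21.2 in replicate 2. Lrpap1, the chaperone that keeps Lrp1 free of ligands in the secretory pathway, was at 89.3 and 88.0 TPM. That was 3.60-fold above Lrp1 over all its transcripts, of which the coding ones held 39.5% of the TPM. Stab1, a scavenger receptor gene, was closest to Lrp1 in level, at 26.3 and 21.01 TPM.

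By TPM, most of the gene level of Lrp1 was assigned to transcript models that do not encode the receptor. Most of its reads were assigned to the full-length one. The leading entry among 10 was Lrp1-208, a retained intron model of 763 nt that begins 81.551 kb into the gene, with 39.0% and 35.5% of the TPM. The full-length coding transcript Lrp1-201, of 14888 nt and 89 exons, held 30.2% and 30.8% of the TPM but 79.2% and 78.7% of the expected counts. Lrp1-204, a retained intron model at the 5′ end of the gene, held 19.7% and 21.9% of the TPM. In GENCODE M21 both retained intron models consist mostly of exon sequence shared with Lrp1-201. Lrp1-208 adds only the stretch from 81.551 to 81.586 kb, and Lrp1-204 only that from 33.079 to 33.521 kb. The division of TPM among these models is therefore an estimate over shared sequence, and retained intron RNA was not measured separately. Coding transcripts of Lrp1 together came to 9.82 ± 1.88 TPM, 39.5% ± 0.729 of the gene level and 83.3% ± 0.323 of its counts. On this estimate for coding transcripts alone Lrp1 would be the lowest of the 8 genes, below Abca1 at 12.2 TPM. A leading transcript that is not annotated as protein-coding was seen in 7.57% of genes with several transcripts (456 of 6024) and in 1 of the 5 members with several transcripts, which is Lrp1. The median leading share in those genes was 71.8%, and 22.3% of them had a leading transcript under 50%. In the deposited tables Apom, Lcat and Lipc had 1 transcript each, although the later GENCODE M21 span of Lipc reaches beyond the 5′ end of Lipc-201 at position 70934808. Abca1-201 held 100% of the Abca1 TPM in both libraries.

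Among 17 other uptake genes 16 were detected and 11 were above 10 TPM in both libraries. Lrpap1 was the highest by mean TPM, and Snx17, a sorting protein that recycles Lrp1, was among the 3 highest at 39.4 and 37.3 TPM. Lrp2, the largest relative of Lrp1 and a kidney receptor, was the lowest at 0.0414 and 0.103 TPM. Pdzk1 had the largest difference between libraries in this list.

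Apom (chr17:35128997-35132050) encodes apolipoprotein M, a lipocalin that rides on HDL and carries sphingosine 1-phosphate, a lipid that acts on vessels and lymphocytes. It was at 841 TPM in replicate 1 and 790 in replicate 2. Apoa1, the main protein of HDL, was 6.28-fold higher, a log2 ratio of Apom to Apoa1 of −2.65 ± 0.10. Among the carried apolipoproteins, 5 of 6 were detected. Apoa2 was at 5989 and 6148 TPM, Apoe at 3213 and 2495, and Apoc3, which restrains triglyceride clearance, at only 5.99 and 5.71. Apoa5 was below the detection limit at 0.435 and 0.640 TPM. P4hb was the listed gene closest to Apom in level.

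In a chosen list of genes that make, export, sense or degrade sphingosine 1-phosphate, 8 of 8 were detected, and 3 were above 10 TPM in both libraries. Mfsd2b, the exporter of red cells and platelets, was the highest at 64.4 and 58.2 TPM, and Spns2, the exporter of endothelium, was at 4.95 and 3.75. The kinase genes Sphk1 and Sphk2, which make the lipid, were at 30.3 and 26.6 TPM and at 12.3 and 9.53. Sgpl1, the lyase that degrades it, was at 17.9 and 16.5 TPM. The receptor gene S1pr3 was the lowest of the list at 1.60 and 1.40. Apom was 13.1- and 13.6-fold above Mfsd2b, the highest of these genes, in the 2 libraries.

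**Figure D3:**
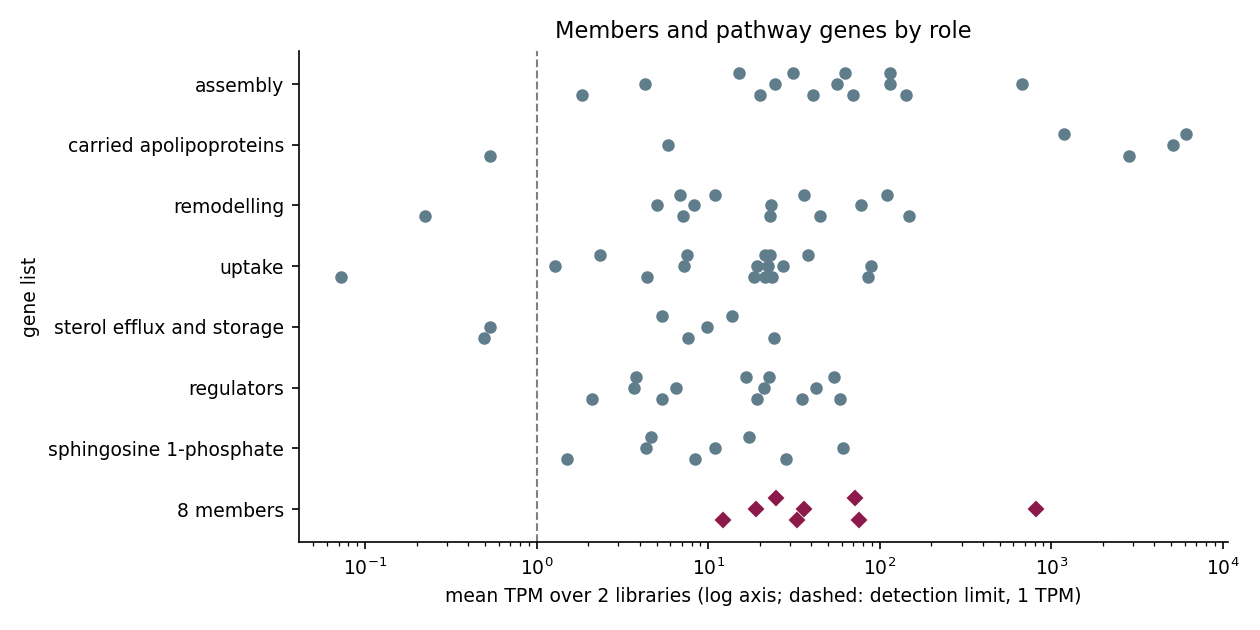
Mean TPM over 2 libraries (log axis) of the 8 genes (diamonds, bottom) and of 78 other pathway genes by role (circles), with the detection limit of 1 TPM dashed; vertical offsets within a list only separate the points. The carried apolipoproteins reach the highest levels, and 73 of the 78 genes were detected.

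Across all 7 lists, 73 of 78 pathway genes were detected, and 47 were above 10 TPM in both libraries. Of 13 regulator genes all were detected. Insig1, which holds back sterol synthesis, led them at 56.1 and 61.0 TPM, followed by Srebf1 at 57.5 and 50.7 and Nr1h2, while Nr5a2 was the lowest at 2.03 and 2.19. Hnf4a, a central hepatocyte factor, was at 17.6 and 15.7 TPM, and Rora, with the largest difference, at 7.45 and 5.54. Of 7 genes for sterol efflux and storage 5 were detected, led by the lysosomal carrier Npc2 at 24.1 and 24.2 TPM.

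Every one of the 8 genes was lower in replicate 2 than in replicate 1 on the TPM scale. Among 8781 genes at 5 TPM or more in either library, 60.8% were lower in replicate 2. The median log2 ratio of TPM + 1, replicate 2 against 1, was −0.23 for the 8 genes and −0.04 for all genes tested. None of the 8 differed by more than 2-fold, against 0.672% of all genes tested (59 of 8781). The largest difference was in Lrp1, with a log2 ratio of −0.41, and the smallest in Apom, with −0.09. Read counts scaled by library totals gave ratios of 0.791 for Lrp1 (exact 95% interval 0.761 to 0.823), 0.792 for Pltp (0.729 to 0.860) and 0.808 for Abca1 (0.775 to 0.843). For Lcat the ratio was 0.862 (0.821 to 0.905), for Scarb1 0.921 (0.889 to 0.953) and for Apom 0.975 (0.959 to 0.992). The intervals of Lipc (0.893 to 1.001) and Mttp (0.923 to 1.002) reached 1. An interval wholly below 1 was found for 6 of the 8, against 24.4% of all genes tested (2140 of 8781). These intervals cover counting error only and narrow with read number, so they compare the 2 libraries and not conditions.

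**Figure D4:**
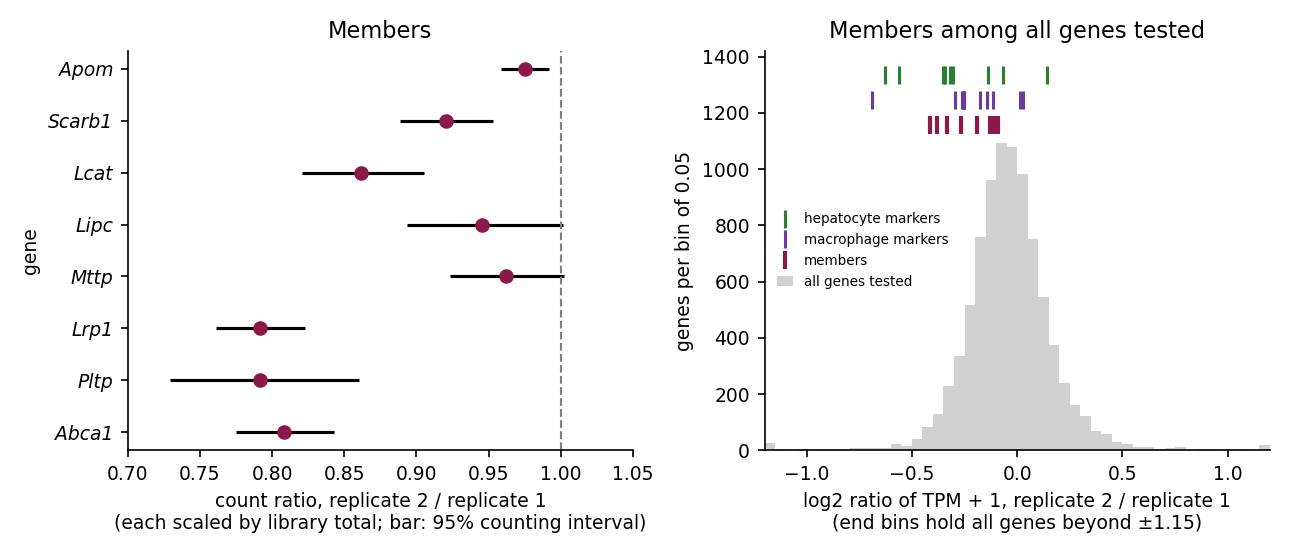
Left, count ratio of replicate 2 to replicate 1 for each gene, with its exact 95% counting interval. Right, log2 ratio of TPM + 1 for all 8781 genes tested (bars) with ticks for the 8 genes and for hepatocyte and macrophage markers that passed the same filter; ticks of all 3 lists lie mostly left of 0.

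Several marker lists were also lower in replicate 2. Summed hepatocyte markers went from 41263 TPM in replicate 1 to 32111 in replicate 2, with 8 of 9 genes tested lower and a median log2 ratio of −0.32. That sum was led by Trf, with a log2 ratio of −0.56, and Afp, with −0.14. Macrophage markers went from 500.2 to 425 TPM, with 9 of 11 lower and a median of −0.25. Endothelial markers went from 101 to 89.4 TPM and erythroid markers from 4579 to 4240, while stellate and mesenchymal markers, at 285 and 281, differed less. Megakaryocyte markers summed to 333 and 336 TPM, a sum led by Pf4 at 233 and 253, while 5 of the 6 were lower in replicate 2 and their median log2 ratio was −0.24. The medians of the endothelial and erythroid lists were −0.14 and −0.16. Pancreas markers summed to 64.5 and 16.4 TPM, with Pnlip at 0 in both libraries. The part of these cell types in the lower levels of the 8 genes was not tested. Of the 62 pathway genes tested 50 were lower in replicate 2, and 34 had an interval wholly below 1 against 5 wholly above.

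The direction rested on the scaling of the libraries. With TMM scaling (trimmed mean of M values) all 8 genes were lower in replicate 2, while the share of all genes that were lower was 43.7% in place of 60.8%. With spike-in scaling 4 of 8 were lower (Lcat, Abca1, Lrp1 and Pltp) beside 18.5% of all genes, and with scaling to the hepatocyte marker sum 2 of 8 were lower (Lrp1 and Pltp) beside 5.04%. Each scaling multiplies every gene of replicate 2 by the same factor. The order of the 8 genes and their place below the median of all genes tested therefore hardly change by construction, and say nothing about stability.

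**Figure D5:**
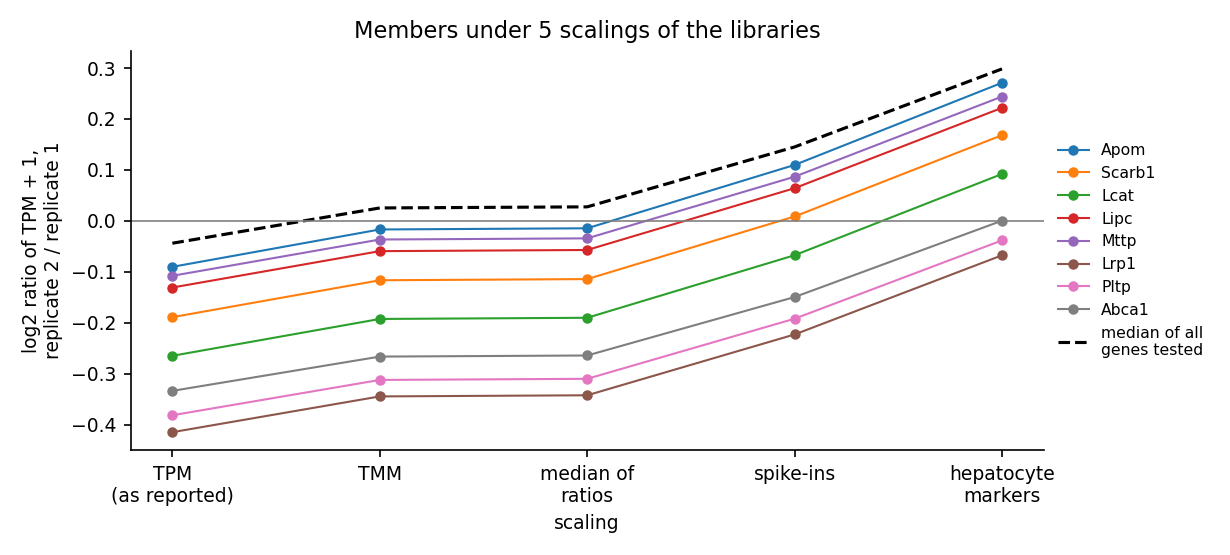
Log2 ratio of TPM + 1, replicate 2 against replicate 1, for each of the 8 genes (lines) and for the median of all genes tested (dashed) under 5 scalings of the libraries. The lines shift together, since each scaling applies the same factor to every gene, and the number of genes below 0 goes from 8 with TPM to 4 with spike-ins and 2 with hepatocyte markers.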

How the data were processed

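Each library came with a gene and a transcript table, with the columns that RSEM writes. Per the companion descriptions they were made on mm10 with annotation M4, from RNA longer than 200 nt (10 ng input, spike-ins added). Aligner, quantifier and strand setting: not given in the sources used here. Expected counts, as deposited, are unscaled estimates of reads per gene or transcript and not always whole. TPM and its posterior mean, as deposited, are abundances normalised for length, with spike-ins in the total. The deposited credible bounds of TPM are on the same signal scale and were read but not printed. The deposited isoform percent is the authors' share of a gene per transcript, and shares were recomputed here from TPM.

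Spike-ins (97 entries) and 26248 numeric identifiers were left out before TPM was rescaled. GENCODE M21 (GRCm38) gave symbols, biotypes and coordinates and named 42462 of 43346 genes. Promoter windows and microRNA sequences came from RefSeq tables of GRCm38.p6, which matched 7 of the 8 members by symbol. The labels call the 2 libraries biological replicates. Their counts differed by more than sampling noise (chi-square per degree of freedom 18.0 over 17609 genes), so they are not the same library deposited again. That does not tell separate preparations from separate samples, and their spread may be technical in part.

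Differences between libraries were log2 ratios of TPM with a pseudocount of 1 for genes at 5 TPM or more in either library, called past 2-fold. Count ratios carry an exact (Clopper-Pearson) 95% interval, scaled by library totals. It was tried only on simulated counts with sampling noise alone, which the interval assumes. That trial therefore does not show how well it covers these libraries, whose counts differed by more than sampling noise. PCR reads without molecular identifiers are not independent molecules. Alternatives were detection limits of 0.5 and 5 TPM, 10 expected counts, a pseudocount of 0.1, no filter, posterior mean TPM, TMM (edgeR 4.0.16), median of ratios (DESeq2 1.42.0), spike-in and hepatocyte-marker scaling, removal of adult globins, and each library alone. Members, lists and pairs were chosen with earlier results of these data known. The genes named were all members, in each pathway list the 3 highest, the lowest and the gene that differed most between libraries, in each marker list the 2 highest, and for each member the pathway gene nearest in log2(TPM + 1) over the 2 libraries. Genes named beyond this rule were chosen for their known role, after their values were seen. Some genes and pairs that the rules give are not reported here. The software was R 4.3.3 and Python 3.11.15 with SciPy 1.17.1, pandas 2.3.3, NumPy 2.4.6 and, for drawing, matplotlib 3.10.9.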

Additional observations from a re-analysis of the deposited data

How the results depend on the processing

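Of 32 alternative values for the counts of genes detected, the summed TPM, the count past 2-fold and the median log2 ratio, 27 stayed within the spread or within 1.5 times. Some of the 27 could not come out otherwise, so their number is no measure of stability. A sum from 1 library alone always lies within the SD of both. A lower detection limit or 1 library alone cannot lower a count of genes detected. Leaving out the filter could not change the count past 2-fold, because all 8 genes passed it. The summed TPM was 1769 instead of 1089 when the 4 adult globin genes were left out of the total, and 1137 or 1041 from 1 library alone. The median log2 ratio of the 8 genes was −0.15 with TMM and with median-of-ratios scaling (−0.155 and −0.152), −0.029 with spike-in scaling and 0.13 with scaling to hepatocyte markers. With spike-in scaling the log2 ratio turned positive for Mttp (0.087), Lipc (0.064), Scarb1 (0.0086) and Apom (0.11). With scaling to hepatocyte markers it was positive for Mttp (0.24), Lcat (0.092), Lipc (0.22), Scarb1 (0.17), Abca1 (0.00035) and Apom (0.27). The scale factor itself sets these shifts. On the estimated TPM of protein-coding transcripts alone, which was added with the values known, Lrp1 took the last place and Scarb1 came after Lcat. Depth limits Pltp most, with the fewest counts. No paired analysis was possible because there is only 1 group.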

Other observations

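The 8 promoter windows found for 7 members, from 250 bases before to 50 after a RefSeq start, were searched for 7 motifs on both strands. The motifs were the TATA box TATAAA, the CCAAT box, the GC box GGGCGG, the receptor motif AGGTCA, the HNF1 motif GTTAATNAT, the FOXA motif TGTTTAC and the HNF4 motif CAAAGTCCA. The motifs of HNF1, FOXA and HNF4, which 0.801%, 3.65% and 0.475% of all windows hold, were in none of the 8. With shares this low, no match in 8 windows is the usual outcome. Only these exact letters were searched, so sites for these factors are not shown to be absent. Lipc had 2 windows. The window at position 70934808, the start of Lipc-201, held the nuclear receptor motif AGGTCA at 2 places, beginning 88 and 76 bases before the start on opposite strands, where 16.3% of 32817 windows hold it at least once. It also held CCAAT and GGGCGG at 1 place each, which 37.4% and 35.6% of windows hold. The window at the upstream Lipc start, position 70952221, held CCAAT at 3 places. The Lcat window held CCAAT and the Lrp1 and Mttp windows GGGCGG. The Pltp window held CCAAT and GGGCGG before the start and TATAAA after it, and the Abca1 window held GGGCGG at 2 places besides its TATAAA. The Apom window, whose start lies inside the GENCODE M21 gene, held none of the 7. It reaches only to position 35132051, while Apom-201 starts at position 35132050 on the minus strand. The stretch before the start of that transcript was therefore not analysed here. The Abca1 window had 62.7% G and C and 26 CG pairs, against medians of 52.7% and 7 over all windows, and the Lipc windows had 48.7% and 5 at Lipc-201 and 47% and 4 upstream. The Mttp window lies at the upstream start of the minor transcript Mttp-202, so the window before the main start was not analysed here. These are matches of letters and show no binding.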
